A study of Drosophila melanogaster with 8 samples.

Results

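The genes described here are the odd-skipped family of Drosophila melanogaster, odd (odd skipped), drm (drumstick), sob (sister of odd and bowl) and bowl (brother of odd with entrails limited), together with lin (lines), whose product acts with theirs. They were found by symbol in the deposited gene table, where they make up 5 of 15182 fly genes, and their isoforms make up 13 of 25406 fly isoforms. RNA was sequenced from embryo cells of 2 kinds, with 4 libraries of each, 1 of each kind from every 1 of 4 independent sorts. GFP-positive cells came from embryos carrying E10::EGFP, a transgene in which E10, an enhancer of ovo, drives EGFP, and they were sorted by green fluorescence against thresholds drawn from wild type embryos. All cells were 50000 cells taken from the parent scatter gate of the same sorts, so they carry the same transgene and hold GFP-positive cells too, although the design text of the series calls this background GFP-. Eggs were laid over 1 h, and the embryos, pooled in large numbers, were at early stage 14 when dissociated, roughly 11 h later at 25 °C. The labels do not say in which cells E10 is active, and a cell in which the reporter was too weak for the gate is not among the GFP-positive cells.

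Odd, Sob, Bowl and Drm are zinc finger proteins. Odd is the founding member, a pair-rule transcription factor that represses its targets with the corepressor Groucho. Lines binds Bowl and lowers its amount in the nucleus, and Drm, a small member of the family, binds Lines and so relieves Bowl. In the embryo this relay patterns the dorsal epidermis, the foregut and the hindgut, and in the leg disc the family acts downstream of Notch in joint formation. No sequence is printed for these genes, since none was at hand.

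Within GFP-positive cells bowl was the most abundant of the 5 genes, whereas in all cells drm was. On the FPKM scale, which is per transcript length, GFP-positive cells had 141 ± 4.01 for bowl, 34.2 ± 17.1 for drm, 14.9 ± 3.33 for lin, 10.97 ± 5.14 for odd and 5.86 ± 0.570 for sob (SD, n = 4). All cells had 93.5 ± 15.0 FPKM for drm, 57.6 ± 10.6 for bowl, 24.6 ± 1.53 for odd, 15.1 ± 1.61 for lin and 9.22 ± 2.01 for sob (SD, n = 4). In GFP-positive cells the ranges over libraries of lin and odd overlapped, and so did those of odd and sob, so the order of those neighbours is not resolved. In all cells no neighbours in the order overlapped. At 141 FPKM bowl lay above 95.5% of the 10943 genes tested in GFP-positive cells, and in all cells drm lay above 92.9% of them.

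bowl, the family member that Lines restrains, was higher in GFP-positive cells. It stood at 136, 143, 142 and 145 FPKM in GFP-positive libraries 1 to 4, against 62.0, 52.1, 70.1 and 46.0 FPKM in all-cell libraries 1 to 4. Every GFP-positive library lay above every all-cell library, and in proportion to their mean the GFP-positive values lay closer together than those of the other 4 genes. The fold of the means was 2.46. On the log2(FPKM + 1) scale limma gave a log2 fold change of 1.3 with an SE of 0.14 and an adjusted p of 5.5e-05. That is 1.77 above the median of all genes tested, which was -0.47. bowl lost its call when libraries were divided by their summed ERCC spike-in FPKM, which moves the median of all genes to -1.26. Its log2 fold change was then 0.36, with a limma adjusted p of 0.53. The ERCC sum was 22746 to 37807 FPKM in GFP-positive libraries, against 7530 to 24702 FPKM in all-cell libraries, where library 4 was the lowest.

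drm, whose product binds Lines, was lower in GFP-positive cells. It stood at 30.2, 21.6, 25.6 and 59.3 FPKM in GFP-positive libraries 1 to 4, against 105, 74.8, 87.9 and 107 FPKM in all-cell libraries 1 to 4. The groups did not overlap, and GFP-positive library 4 lay far above the other 3 of its group. The mean in all cells was 2.74 times that in GFP-positive cells, and limma gave a log2 fold change of -1.52 with an SE of 0.27 and an adjusted p of 8.8e-04, or -1.05 relative to the median of all genes. Without GFP-positive library 4 it was -1.82.

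odd was also lower in GFP-positive cells. It stood at 12.1, 4.80, 9.85 and 17.2 FPKM in GFP-positive libraries 1 to 4, against 23.8, 23.3, 24.6 and 26.8 FPKM in all-cell libraries 1 to 4. The groups did not overlap, and the GFP-positive libraries spread much more widely than the all-cell ones. Here limma gave a log2 fold change of -1.21 with an SE of 0.30 and an adjusted p of 0.0058, or -0.74 relative to the median of all genes. With scaling of the libraries by a trimmed mean of log ratios (TMM-like), which brings the median of all genes to -0.02, the log2 fold change of odd was -0.70 and the call was lost (limma adjusted p = 0.059).

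sob, a close relative of odd in sequence, did not pass the test. It stood at 5.58, 5.52, 5.62 and 6.71 FPKM in GFP-positive libraries 1 to 4, against 11.7, 6.80, 9.35 and 9.005 FPKM in all-cell libraries 1 to 4. The groups did not overlap, though GFP-positive library 4 came within a small step of all-cell library 2. Its log2 fold change of -0.56 had an SE of 0.22 and a limma adjusted p of 0.055, and lay -0.09 from the median of all genes. With the sort as a replicate block the limma adjusted p was 0.047, and without all-cell library 2 it was 0.040. With TMM-like scaling the log2 fold change was -0.07 (limma adjusted p = 0.83).

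lin did not pass the test either. It stood at 15.2, 10.3, 15.7 and 18.3 FPKM in GFP-positive libraries 1 to 4, against 15.5, 12.8, 16.2 and 16.1 FPKM in all-cell libraries 1 to 4. The groups overlapped, and the lowest library of each was that of sort 2. Its log2 fold change of -0.05 had an SE of 0.20 and a limma adjusted p of 0.87, and its sign turned with the scaling, to 0.47 with TMM-like scaling (limma adjusted p = 0.072) and to -0.93 with the ERCC sum (limma adjusted p = 0.13).

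**Figure D1:**
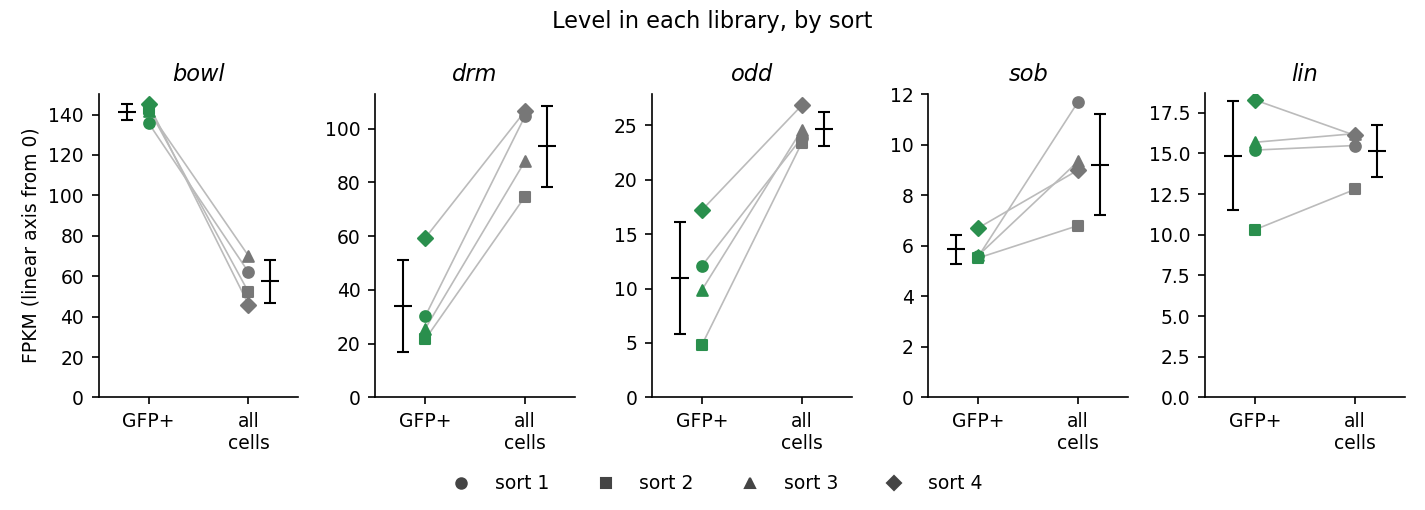
FPKM of bowl, drm, odd, sob and lin in each library, with GFP-positive (GFP+) libraries left of all-cell libraries. Grey lines join libraries of 1 sort, and black bars give the mean and SD of 4 libraries. bowl was above the all-cell libraries in 4 of 4 GFP-positive libraries, drm, odd and sob were below in 4 of 4, and lin overlapped.

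Of the 5 genes limma called 1 higher and 2 lower. Among the 10943 genes tested 11.6% were called higher and 38.7% lower, so counts of 1 and 2 among 5 are near the background and are no result about the family. Of groups that do not overlap, 1 member was higher and 3 were lower, against 10.2% and 34.8% of all genes tested, and 5 genes are too few to set that apart. TMM-like scaling left 1 of the 5 called higher (bowl) and 1 lower (drm), beside 21.0% and 18.8% of all genes, and the ERCC sum 0 higher and 3 lower (drm, odd and sob), beside 2.82% and 52.2%. In bulk RNA such as this, fewer cells that express a gene and less of its RNA per cell cannot be told apart. In the authors' deposited table, which tests 1 library against 1 by Cuffdiff within each sort, bowl was significant in 3 of 4 sorts, drm in 3, odd in 1, and sob and lin in 0. The authors' log2 fold change of bowl ran from 1.02 in sort 3 to 1.66 in sort 4, and that of drm from -0.84 in sort 4 to -1.79 in sort 1.

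GFP-positive library 4 was the highest of its group for 5 of the 5 genes, while it was the highest for 31.1% of all genes tested. The summed FPKM of 10 markers of the gut and the Malpighian tubules, organs in which drm, odd and bowl are known to act, was also highest in that library. The sums were 104, 130, 145 and 193 FPKM in GFP-positive libraries 1 to 4, against 277, 278, 270 and 320 FPKM in all-cell libraries 1 to 4. Most of the sum in library 4 came from ct, a homeodomain factor of the tubules that did not pass the test, at 85.4 FPKM, and srp, a GATA factor, at 58.9 FPKM, both named after their values were seen. Of the 10 markers 5 were highest in GFP-positive library 3 and 5 in library 4, and the summed lists of foregut and hindgut genes and of heart markers were highest in libraries 3 and 2. Library 4 was also highest for the summed lists of pathway partners, segment polarity, leg and imaginal primordia, and dorsal epidermis and amnioserosa. The last stood at 508 FPKM there, against 324 to 429 FPKM in the other GFP-positive libraries. Library 4 was thus highest for other lists beside that of gut markers, and the cause of this order was not tested. Of the 10 gut and tubule markers 9 fell and 0 rose, against 38.7% and 11.6% of all genes tested, with 0 at an FPKM of 0 in all GFP-positive libraries. Among them Ptx1, a homeodomain factor of the midgut and highest in library 3, averaged 1.70 ± 0.875 FPKM in GFP-positive cells and 11.2 ± 3.47 FPKM in all cells (SD, n = 4 each). Markers of the heart, the pericardial cells and the visceral mesoderm, a further site of odd expression, summed to 109 to 152 FPKM in GFP-positive libraries, against 178 to 200 FPKM in all-cell libraries. Of the GFP-positive sums 38.3 to 64.7 FPKM came from Doc1, which rose and is also in the list of dorsal epidermis and amnioserosa. In GFP-positive library 2, where the sum was highest, prc held 46.3 FPKM, against 2.93 to 10.8 FPKM in the other GFP-positive libraries. Of these 9 markers 5 fell and 1 rose, against the same shares of 38.7% and 11.6%, with 0 at an FPKM of 0 in all GFP-positive libraries. So few genes do not set these counts apart from those shares. With TMM-like scaling 6 gut markers and 2 of the heart and visceral list fell, beside 18.8% of all genes. The part of these tissues in the lower levels of drm and odd was not tested.

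**Figure D2:**
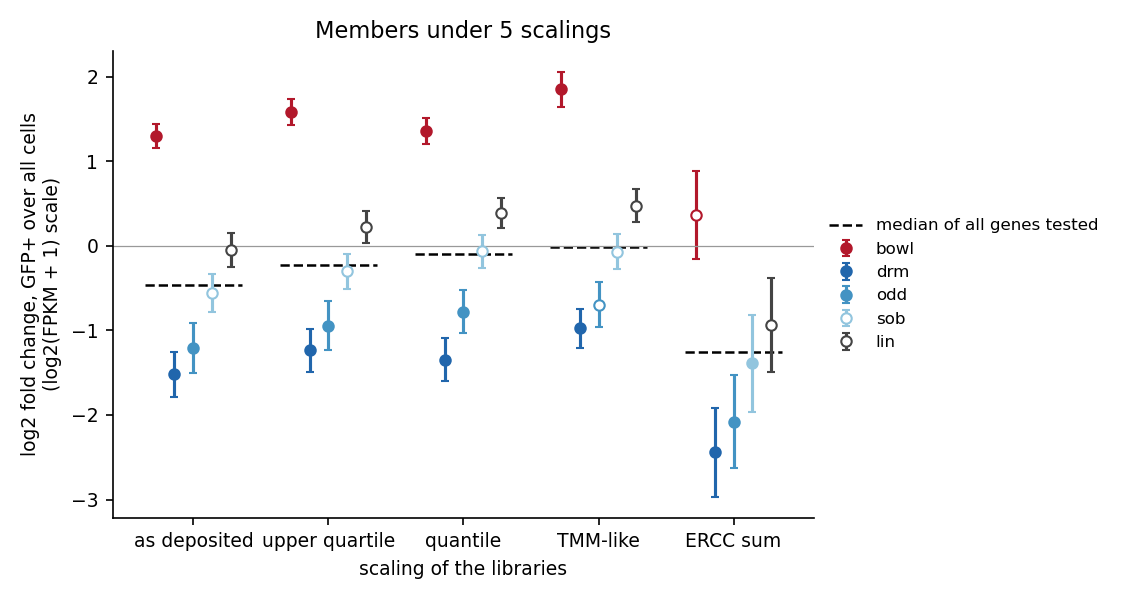
Log2 fold change of the 5 genes, GFP-positive over all cells, with the libraries as deposited and under 4 other scalings. Bars are SE, filled points have a limma adjusted p under 0.05, and the dashed lines give the median of all genes tested. bowl lay above and drm and odd below that median under each of the 5 scalings, and lin moved between -0.93 and 0.47.

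Ratios of these genes within a library are almost free of the scaling between libraries. bowl exceeded drm in each GFP-positive library, by 4.50, 6.61, 5.55 and 2.45 times in libraries 1 to 4. In all-cell libraries 1 to 4 the ratio of bowl to drm was 0.592, 0.697, 0.797 and 0.432, so that drm was the larger in each. The log2 ratio of bowl over drm, with 1 FPKM added to each, was 2.13 ± 0.607 in GFP-positive cells and -0.69 ± 0.376 in all cells (SD, n = 4 each), a difference of 2.82. Since bowl was higher and drm lower in every GFP-positive library, this ratio could not overlap between the groups, and no test of it is given.

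The ratio of bowl to lin, the gene whose product restrains Bowl, was likewise higher in GFP-positive cells. bowl was 7.94 to 13.9 times lin in GFP-positive libraries, against 2.86 to 4.32 times in all-cell libraries. The log2 ratio differed by 1.35. drm, the antagonist of Lines, was 1.63 to 3.25 times lin in GFP-positive libraries, against 5.42 to 6.77 times in all-cell libraries, a log2 difference of -1.47. For both ratios to lin, whose own levels overlapped, the groups did not overlap. For bowl over lin the ranges of the 2 single genes already fix this, and no test of it is given. For drm over lin they do not, and the exact two-sided permutation p was 0.0286, the smallest that 4 against 4 libraries allow. Adjusted over the 5 ratios examined it was 0.0286 too, but the separation of the other ratios was fixed, so the adjustment adds nothing. The log2 fold change was -0.05 for lin and -1.52 for drm, so this ratio mainly restates the difference of drm and is no separate result. With the sort as a replicate block the difference of drm over lin was the same, in 4 of 4 sorts, and the permutation p was 0.125, the smallest that 4 pairs allow. The log2 ratios of odd over bowl and of sob over bowl differed by -2.51 and -1.86, a separation that the levels of the single genes already fix.

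**Figure D3:**
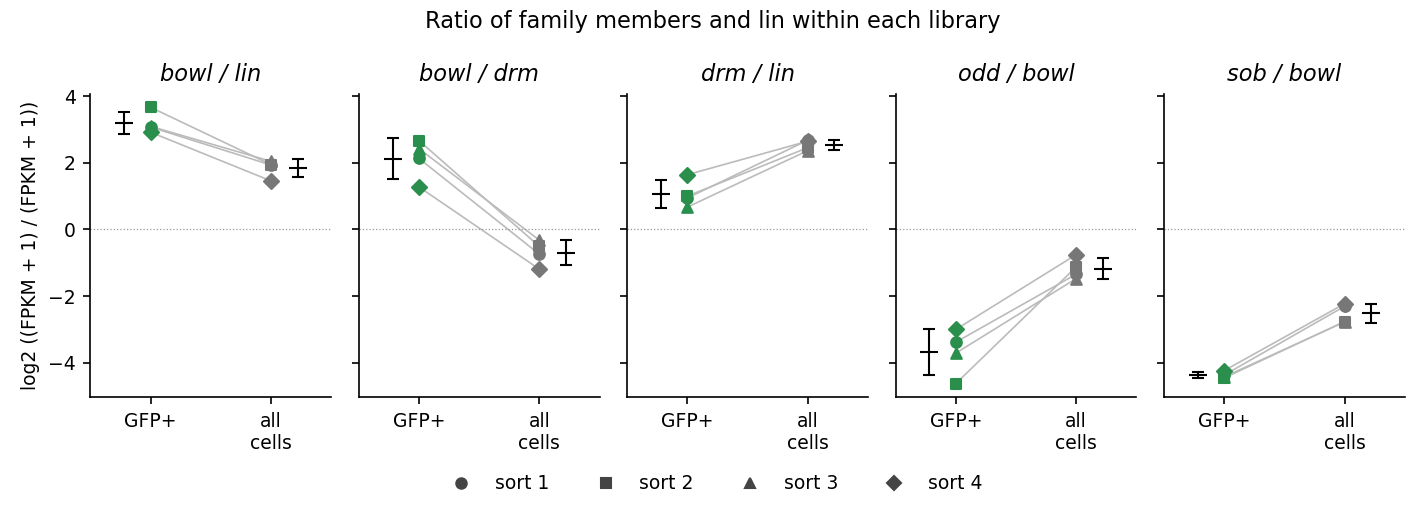
Log2 ratios of pairs of the 5 genes within each library, with 1 FPKM added to each value. GFP-positive (GFP+) libraries are left of all-cell libraries, grey lines join libraries of 1 sort, and black bars give the mean and SD of 4 libraries. For bowl over drm the GFP-positive libraries sit between 1.28 and 2.67 and the all-cell libraries between -1.19 and -0.32.

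With the libraries as deposited the 4 zinc finger genes together held about as much FPKM in both groups, while its division among them differed. Their sum was 192 ± 24.2 FPKM in GFP-positive cells and 185 ± 19.5 FPKM in all cells (SD, n = 4 each). This likeness depends on the scaling. TMM-like scaling divides GFP-positive libraries by 0.722 to 0.918 and all-cell libraries by 1.03 to 1.37, which raises the sum in GFP-positive cells over that in all cells. The ERCC sum divides them by 1.06 to 1.76 and by 0.350 to 1.15, which moves it the other way. Shares within a library do not change with such factors. bowl made up 63.6% to 81.7% of the sum in GFP-positive libraries, against 24.4% to 36.5% in all-cell libraries. drm made up 12.4% to 25.98% in GFP-positive libraries, against 45.8% to 56.6% in all-cell libraries. odd made up 2.74% to 7.53% in GFP-positive libraries, against 11.8% to 14.9% in all-cell libraries. sob made up 2.94% to 3.16% in GFP-positive libraries, against 4.33% to 5.79% in all-cell libraries. These shares sum to the whole in each library, so they are not independent of each other and were not tested.

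On build dm3, drm (CG10016), sob (CG3242) and odd (CG3851) lie side by side on chromosome 2L at 3539251 to 3548086, 3578010 to 3580766 and 3604222 to 3606748. The deposited gene table lists 0 genes between drm and sob, over 29923 bases, and 0 between sob and odd, over 23455 bases. bowl (CG10021) lies further along the arm at 3771198 to 3784121, with 164449 bases and 34 listed genes between odd and bowl. lin (CG11770) is on chromosome 2R at 4802033 to 4805739. The genes flanking the drm, sob and odd stretch were low. CG8853, next to drm, had 0 to 1.05 FPKM in GFP-positive libraries and 0.450 to 1.74 FPKM in all-cell libraries. It did not pass the filter on low values and was not tested. Dot, next to odd, was not called with the libraries as deposited (log2 fold change -0.50, limma adjusted p = 0.17). Its sign turned with the scaling, to 0.0037 with quantile normalization, and it was called with the ERCC sum (-1.28, limma adjusted p = 0.0498).

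The mean levels of the neighbours of bowl did not differ in the same direction. CG31772, 3006 bases to its left, was lower, at 0.580 ± 0.206 FPKM in GFP-positive cells and 2.03 ± 0.172 FPKM in all cells (SD, n = 4 each). It passed the filter on low values only through the all-cell libraries, as the GFP-positive ones held 0.305 to 0.769 FPKM. Its call is therefore not independent of that filter. It lost its call with TMM-like scaling (limma adjusted p = 0.053), with quantile normalization (0.11) and without sort 2 (0.057). CG31960, 825 bases to its right, stood at 6.41 ± 3.72 FPKM in GFP-positive cells and 2.35 ± 1.499 FPKM in all cells (SD, n = 4 each) and did not pass the test (limma adjusted p = 0.066), though it did with the replicate block (0.013) and with TMM-like scaling (0.0097). Pgi, which encodes a glycolytic enzyme and is the next gene to the left of lin, was lower, with a log2 fold change of -1.38 (limma adjusted p = 1.9e-04). CG8248, on the other side of lin, had a log2 fold change of -1.20 (limma adjusted p = 0.018). It lost its call with TMM-like scaling (0.064), with quantile normalization (0.063), without GFP-positive library 2 (0.052) and without all-cell library 1 (0.056) or 4 (0.052). The call was also lost without sort 1 (0.062) or sort 3 (0.068). lin overlaps CG34219 over 527 bases, so fragments from that stretch could belong to either. CG34219 stood at 2.68 ± 2.02 FPKM in GFP-positive cells and 3.80 ± 2.10 FPKM in all cells (SD, n = 4 each).

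Of the 13 isoforms 10 passed the filter on low values, and limma called 3 higher and 3 lower, against 9.28% and 27.2% of the 16198 isoforms tested. The groups did not overlap for 7 of them, with 3 higher and 4 lower, against 8.82% and 27.2% of isoforms. odd, sob and lin are listed with 1 isoform each, whose values equal those of the gene, and odd-RA was among the 3 called lower (limma adjusted p = 0.014, 0.082 with TMM-like scaling). Isoforms of 1 gene share most of their sequence, so their separate values are estimates with more error than the gene's.

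drm is listed with 2 isoforms that start 484 bases apart. drm-RB, with the upstream start, stood at 14.5, 1.08, 4.35 and 17.2 FPKM in GFP-positive libraries 1 to 4, against 48.3, 30.8, 36.7 and 62.6 FPKM in all-cell libraries 1 to 4. drm-RA stood at 15.7, 20.6, 21.2 and 42.1 FPKM in GFP-positive libraries 1 to 4, against 56.4, 44.0, 51.3 and 44.0 FPKM in all-cell libraries 1 to 4. Both were below the all-cell libraries in every GFP-positive library, drm-RA of library 4 by little. The log2 fold change was -2.56 for drm-RB (SE 0.62, limma adjusted p = 0.010) and -1.03 for drm-RA (SE 0.27, limma adjusted p = 0.015). drm-RA lost its call with TMM-like scaling (log2 fold change -0.55, limma adjusted p = 0.16).

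The share of drm that drm-RB held varied widely among GFP-positive libraries. It was 48.0%, 5.0%, 17.0% and 29.0% in GFP-positive libraries 1 to 4, against 46.2%, 41.2%, 41.7% and 58.7% in all-cell libraries 1 to 4. GFP-positive library 1 lay within the all-cell range, and the other 3 lay below it. The mean share was 24.8% in GFP-positive cells and 46.9% in all cells, and the difference did not pass the exact two-sided permutation test (p = 0.114, adjusted over 2 shares 0.229).

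bowl is listed with 8 isoforms, 3 of which carried most of its FPKM. bowl-RD held 53.7% ± 8.95 of bowl in GFP-positive cells and 54.2% ± 5.31 in all cells, and bowl-RH held 20.8% ± 3.51 in GFP-positive cells and 18.8% ± 6.30 in all cells (SD, n = 4 each). bowl-RA starts 7740 bases downstream of the first annotated start, inside the gene, and held 17.4% ± 4.69 in GFP-positive cells and 20.0% ± 5.02 in all cells. Its share did not pass the exact permutation test (p = 0.457, adjusted 0.457). bowl-RD, bowl-RH and bowl-RA rose by 1.26, 1.41 and 1.04 log2 units (SE 0.18, 0.29 and 0.26, limma adjusted p = 7.5e-04, 0.0049 and 0.012).

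The other isoforms of bowl were low. bowl-RF stood at 2.30 to 13.3 FPKM in GFP-positive libraries, against 0.00508 to 3.45 FPKM in all-cell libraries, and did not pass the test (log2 fold change 1.62, limma adjusted p = 0.058). It passed with TMM-like scaling (0.040), upper quartile scaling (0.046) and quantile normalization (0.038), and without GFP-positive library 1 (0.037) or all-cell library 3 (0.037). bowl-RC did not pass it either (limma adjusted p = 0.52). bowl-RB, bowl-RE and bowl-RG did not pass the filter. bowl-RE, which has the first start, was listed at 0 in 4 of 4 all-cell libraries and stood at 2.19, 1.42, 0 and 2.25 FPKM in GFP-positive libraries 1 to 4. bowl-RG was listed at 0 in all 8 libraries.

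**Figure D4:**
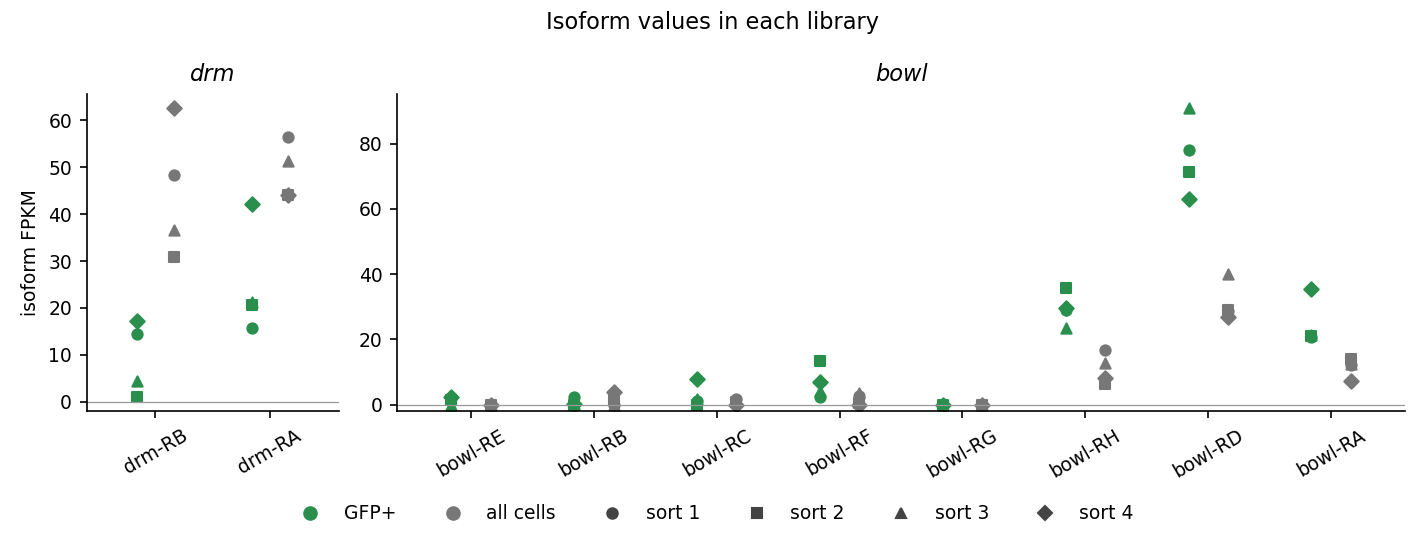
FPKM of the 2 isoforms of drm and the 8 isoforms of bowl in each library, ordered by start from upstream to downstream, with GFP-positive (GFP+) libraries left of all-cell libraries and marker shapes giving the sort. bowl-RD reaches 62.9 to 90.8 in GFP-positive libraries and 26.7 to 39.9 in all-cell libraries, and drm-RB stays at or below 17.2 in GFP-positive libraries.

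Genes that pattern the dorsal epidermis beside Lines and Bowl were mostly higher in GFP-positive cells. Of 9 such genes tested 6 rose and 2 fell, against 11.6% and 38.7% of all genes tested. Their median log2 fold change was 0.53, against -0.47 over all genes. ovo, the gene of the E10 enhancer, averaged 262 ± 43.6 FPKM in GFP-positive cells and 41.6 ± 11.9 FPKM in all cells (SD, n = 4 each). It is among the 6 rises and in the median, and since cells were sorted by its enhancer, its rise is no independent result. wingless (wg), a secreted signal on which dorsal cell fates depend, averaged 67.7 ± 5.40 FPKM in GFP-positive cells and 22.6 ± 3.74 FPKM in all cells. stripe (sr), a factor of muscle attachment cells, averaged 29.3 ± 10.1 FPKM in GFP-positive cells and 13.5 ± 4.22 FPKM in all cells. The groups of sr overlapped, and its call was lost without sort 4 (limma adjusted p = 0.058) and with the ERCC sum (0.83). hedgehog (hh), named after its value was seen, did not pass the test, with 22.02 ± 8.14 FPKM in GFP-positive cells and 16.5 ± 4.52 FPKM in all cells. TMM-like scaling gave 7 rises and 0 falls, the ERCC sum 1 rise, that of ovo, and 2 falls. Over all genes tested these scalings gave 21.0% higher and 18.8% lower, and 2.82% and 52.2%, which are also the shares for the lists that follow.

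Of 13 genes of partners of the relay, among them Notch, Hedgehog and Wnt pathway genes and corepressors, 3 rose and 4 fell, which is near the 11.6% and 38.7% of all genes. groucho (gro), the corepressor of Odd, fell to 17.9 ± 5.56 FPKM in GFP-positive cells, against 55.2 ± 7.96 FPKM in all cells, and brahma (brm), the ATPase of a chromatin remodelling complex, fell to 13.4 ± 4.55 FPKM, against 43.1 ± 4.46 FPKM (SD, n = 4 each). Their log2 fold changes were -1.61 and -1.66 (limma adjusted p = 1.5e-04 and 1.7e-04). TMM-like scaling gave 6 rises and 2 falls, the ERCC sum 0 and 5.

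Of 9 other pair-rule genes tested 2 rose and 5 fell, with a median log2 fold change of -0.79. Over all genes 11.6% rose and 38.7% fell, with a median of -0.47, and the group was not tested against them. runt (run) fell to 2.17 ± 0.965 FPKM in GFP-positive cells, against 12.5 ± 2.39 FPKM in all cells. odd-paired (opa), a zinc finger gene, fell to 10.2 ± 1.85 FPKM, against 31.4 ± 4.72 FPKM (SD, n = 4 each). ftz-f1, which encodes a nuclear receptor and is a partner of the pair-rule gene ftz, rose to 66.2 ± 41.2 FPKM, against 14.9 ± 3.91 FPKM (SD, n = 4 each). TMM-like scaling gave 4 rises and 2 falls in this list, the ERCC sum 0 and 5. Of 16 genes in a segment polarity list 3 rose and 6 fell, again near the shares over all genes, with a median log2 fold change of -0.17. The list is wider than its name, since it holds Doc1 and Sp1, which are not classed as segment polarity genes. Doc1, also in the lists of dorsal epidermis and of heart markers, is among the 3 rises. Sp1, a zinc finger gene, and gooseberry (gsb), which encodes a paired box factor, fell by 1.77 and 1.61 log2 units. The same scalings gave 7 rises and 4 falls, and 0 and 6.

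Of 11 genes of leg and imaginal primordia, a further place where the family acts, 2 rose and 5 fell, against 11.6% and 38.7% of all genes. dachshund (dac), a leg patterning factor, and snail (sna), a zinc finger factor, fell by 1.95 and 2.25 log2 units, while C15, a homeodomain factor of the distal leg that is also active in the amnioserosa, rose by 2.92. Of 16 genes of the foregut and hindgut 6 rose and 6 fell, against the same shares. orthopedia (otp) and forkhead (fkh), both transcription factors of the hindgut, fell by 2.11 and 1.71 log2 units, and wg was the largest rise among the 16. The same scalings gave 7 rises and 2 falls, and 0 and 7, for the gut list, and 2 rises and 5 falls, and 1 and 6, for the leg list.

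**Figure D5:**
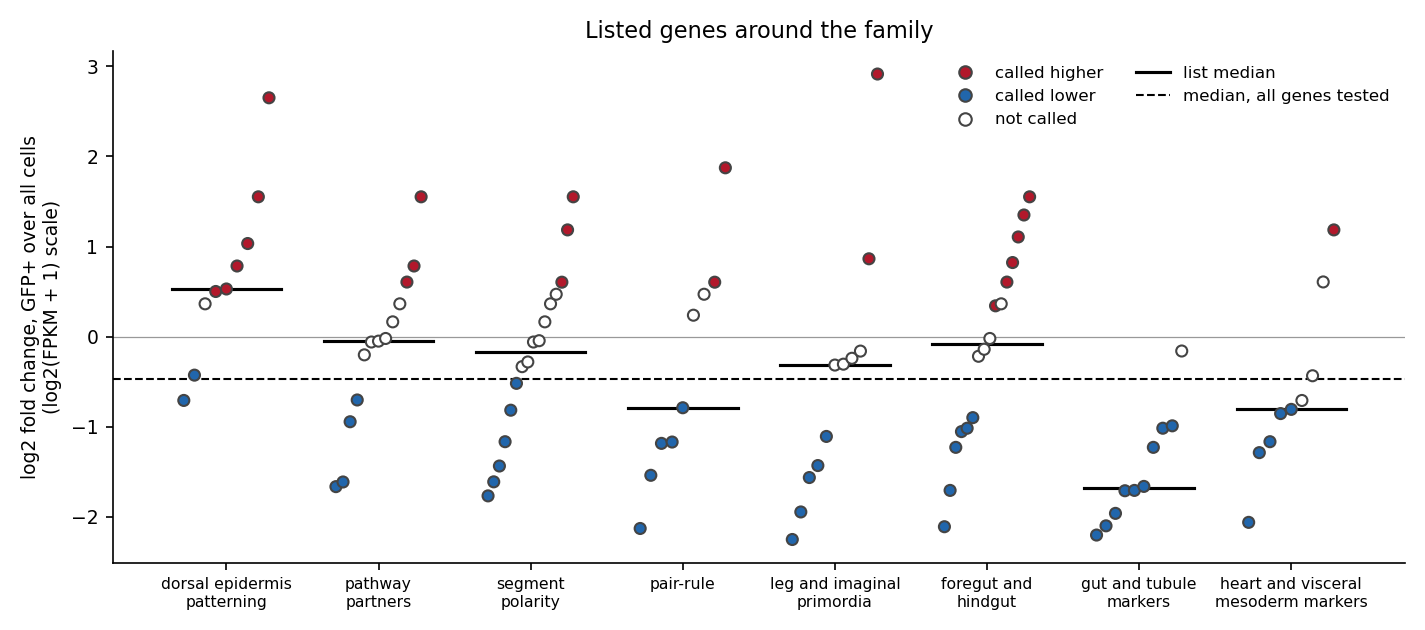
Log2 fold change of each tested gene in 6 lists of genes around the family and 2 lists of tissue markers, GFP-positive over all cells. Red points were called higher, blue points lower and white points neither (limma adjusted p of 0.05). Solid bars are list medians and the dashed line is the median of all genes tested, -0.47. The list of dorsal epidermis patterning, ovo included, has a median of 0.53 and that of the gut and Malpighian tubule markers -1.68.

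Over the 8 libraries the genes whose profile was most like that of bowl were ed, wg and grh, with Pearson's r of 0.995, 0.990 and 0.990. ed encodes the adhesion protein Echinoid and grh the epidermal transcription factor Grainy head. ed averaged 284 ± 8.04 FPKM in GFP-positive cells and 145 ± 23.3 FPKM in all cells, and grh 162 ± 9.07 FPKM in GFP-positive cells and 58.3 ± 10.96 FPKM in all cells (SD, n = 4 each). For drm the most alike genes were CG17385, trr and CG15735 (r = 0.991, 0.990 and 0.987), and for odd they were tef, Spt6 and CG6962 (r = 0.984 each). For sob they were uri, CG4281 and CG12105 (r = 0.971, 0.967 and 0.963), and for lin CG31211, CG1722 and CG33774 (r = 0.932, 0.915 and 0.894). These correlations are over log2(FPKM + 1) in 8 libraries that fall into 2 groups, so that any gene with a difference of like size and direction scores high, and no test was made.

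The whole series stood as follows. FPKM values of fly genes summed to 459696 to 505783 in GFP-positive libraries and to 485560 to 542636 in all-cell libraries, and depth as estimated from the lowest values was 5780000 to 9350000 fragments in GFP-positive libraries and 9850000 to 11760000 fragments in all-cell libraries. By the same estimate odd rested on 92.3 to 233 fragments in GFP-positive libraries and 551 to 670 in all-cell libraries, sob on 94.97 to 137 in GFP-positive and 209 to 301 in all-cell libraries, and lin on 309 to 535 in GFP-positive and 549 to 689 in all-cell libraries. Lists of markers of other tissues gave 0 rises and 10 falls of 10 for neurons, 0 and 6 of 7 for neuroblasts, 1 and 5 of 6 for glia, 0 and 8 of 8 for somatic muscle, 0 and 5 of 5 for fat body, 0 and 3 of 5 for hemocytes and 1 and 2 of 4 for germ cells. Trachea gave 6 and 0 of 6, dorsal epidermis and amnioserosa 8 and 0 of 8, and trichome epidermis 7 and 0 of 9. Over all genes tested 11.6% rose and 38.7% fell, and no list was tested against these shares. The 5 hemocyte and 4 germ cell genes are too few to set their counts apart from them. With the ERCC sum trachea gave 2 rises, dorsal epidermis and amnioserosa 2, and trichome epidermis 7, beside 2.82% of all genes. ovo, by whose enhancer the cells were sorted, is among the 7 of trichome epidermis in both counts.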

How the data were processed

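Gene and isoform tables deposited by the authors hold FPKM values per the file headers, 1 column per library, beside Cuffdiff log2 fold changes and q-values of 1 GFP-positive against 1 all-cell library, also deposited by the authors. The tools, per the submitters' processing notes, were Cuffdiff 1.3.0, Cufflinks 1.3.0 and TopHat 1.4.0 with build dm3. Strand use, parameters and annotation release are not stated in what was read here. Per the labels' protocols 5 ng of RNA with ERCC spike-ins was amplified for each library. RPKM had been assumed in the design, and the test is the same. Starts were taken as 0-based and shifted by 1.

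Rows with 1 FPKM or more in at least 4 of 8 libraries were tested with limma 3.58.1 in R 4.3.3 (mean-variance trend, two-sided, log2(FPKM + 1), Benjamini-Hochberg over all rows tested, threshold 0.05), and the scripts were tested on simulated data. Such fold changes understate the change of low genes. Alternatives were 2 pseudocounts, other filters and scalings, the sort as a block, array weights, summed isoforms and leaving out libraries or sorts. Ratios and shares were tested by exact permutation. Depth was estimated from the first step of FPKM times locus length in short loci with 1 isoform, taken as 1 fragment. Fragments of odd, sob and lin used Release 6 transcript lengths.

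The labels tie libraries to numbered sorts, so the numbers pair them; deviations from group means correlated by 0.44, 0.10, 0.41 and 0.17 within sorts 1 to 4, against at most 0.27, 0.15, 0.15 and 0.27 with another sort, so sorts 2 and 4 did not correlate best with themselves. The members and lists were chosen with earlier results of these data known. Named beside them are the 3 called genes with the largest change per list, the nearest and overlapping genes, and the 3 most alike genes at 5 FPKM or more in 1 group. Of 167 list entries, 1 (B) was not matched.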

Additional observations from a re-analysis of the deposited data

Results flagged for a closer look

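Of 40 groups of 4 libraries examined for the 5 genes, the isoforms of drm and bowl and the 5 ratios, 4 held a library that stood far from the other 3. Chance flags about 1 in 20 groups of independent, normal values. These groups are not independent, and those of bowl-RG and of bowl-RE in all cells, at 0 throughout, could not be flagged. That rate therefore sets no expected number here. sob stood at 6.71 FPKM in GFP-positive library 4, against 5.52 to 5.62 FPKM in the other GFP-positive libraries. bowl-RA stood at 35.4 FPKM in GFP-positive library 4, against 20.8 to 21.4 FPKM in the other 3. bowl-RB stood at 2.32 FPKM in GFP-positive library 1 and at 0.179 FPKM or less in the other 3. bowl-RD stood at 39.9 FPKM in all-cell library 3, against 26.7 to 28.9 FPKM in the other 3 all-cell libraries.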

How the results depend on the processing

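drm kept its direction and its call under each of the 23 alternatives, with log2 fold changes of -2.44 to -0.98, and odd and bowl did so under 22 of 23. odd lost its call with TMM-like scaling (-0.70), and bowl with the ERCC sum (0.36). lin was called under 0 of 23. sob gained a call under 5 of 23: -0.56 with a filter of 5 FPKM, -1.39 with the ERCC sum, -0.56 with the replicate block, -0.61 with array weights and -0.68 without all-cell library 2. The replicate block changed no other call of the 5 genes. Leaving out 1 library gave -1.45 to -0.90 for odd, -1.82 to -1.34 for drm, -0.68 to -0.44 for sob, 1.2 to 1.4 for bowl and -0.15 to 0.11 for lin. Paired by sort, a permutation of the ratios cannot give a p under 0.125.

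Counts over the whole table moved with the scaling. Genes called higher numbered 1265 as deposited, and 2299, 2036 and 309 under TMM-like scaling, quantile normalization and the ERCC sum. Genes called lower numbered 4233 as deposited, 2058 under TMM-like scaling and 2561 under quantile normalization. Isoforms called higher numbered 1503 as deposited and 2436 under TMM-like scaling. Isoforms called lower numbered 4401, against 2140 under TMM-like scaling and 2586 under quantile normalization. Leaving out 1 library gave 1050 to 1259 genes higher and 3400 to 4411 lower, and 1175 to 1470 isoforms higher and 3273 to 4232 lower. CG15735 turned to 0.11 with TMM-like scaling and tud, a germ cell gene, to -0.30 with the ERCC sum. The cause of these changes was not tested. Of the 3 genes whose fragments were estimated, sob and odd rested on the fewest in GFP-positive libraries.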
